A study of Mus musculus with 2 samples.

Results

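Proteasome subunits and the enzymes that activate and conjugate ubiquitin were examined in CD5-positive gamma delta T cells from mouse spleen. The genes were those whose platform symbol begins with Psma, Psmb, Psmc, Psmd, Psme, Ube2 or Uba, apart from Ube2c, and that had a probe annotated to a single gene. This gave 32 of 4331 named genes on 34 of 8014 probes, namely 22 proteasome subunits, 7 ubiquitin-conjugating (E2) enzymes, 2 activating (E1) enzymes and Ubap1. The symbol prefix brings in Ubap1, a ubiquitin-binding component of the ESCRT-I sorting complex that is no E1. Psmb8 and Ube2g1 had 2 probes each and the other genes 1. No filter on low values was applied, so all 32 entered every count.

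Cells from mice carrying the LAT3YF allele were set against cells from wildtype mice. LAT is a membrane adaptor that becomes phosphorylated on tyrosines when the T cell receptor is engaged, and in the LAT3YF form some of these tyrosines are phenylalanine. Per the labels, both populations were spleen cells taken with anti-CD5 magnetic beads and a flow sorter, and total RNA was hybridised. No label states the age or number of the mice, any pooling or the strain background. There were 2 arrays, each carrying both populations, with the dyes reversed between them, and they count as 1 replicate because no label gives separate mice or extracts. LAT3YF was in channel 2 and wildtype in channel 1 of the + polarity array, and the channels were exchanged on the - polarity array.

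The deposited values are log ratios of the channels, read here as log10. The - polarity values were multiplied by -1, called turned below, so that a sign stands for the same population on both arrays. The labels name neither the numerator nor the dyes, so which population a positive value belongs to is not settled, and each statement below can be read with LAT3YF and wildtype exchanged. Values are given for the + polarity array first and the turned - polarity array second, then as mean ± SD over the 2 arrays. The SD covers technical error only, and with 1 replicate no test of the populations was made. A gene was counted as past a fold when its mean reached it and both arrays had the same sign. The files hold ratios and no intensities, so the depth of signal behind a value is unknown and the gamma delta identity of the cells could not be checked from levels. In a ratio of sorted populations, fewer cells of a type and less RNA per cell cannot be told apart.

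The proteasome degrades proteins tagged with ubiquitin. Its barrel, the 20S core, has outer rings of alpha subunits that gate the channel and inner rings of beta subunits, a few of which carry the proteolytic sites. A 19S cap of ATPases and other subunits recognises and unfolds the tagged protein, and the PA28 ring is an alternative cap that opens the barrel without ATP. In lymphocytes and in cells exposed to interferon gamma the catalytic beta subunits Psmb5, Psmb6 and Psmb7 are replaced in newly built cores by the immune subunits Psmb8, Psmb9 and Psmb10, which favour peptides that fit MHC class I molecules. Ubiquitin itself is activated by an E1 enzyme, passed to an E2 enzyme and attached to the target with the help of a ligase. Related modifiers such as NEDD8 and ISG15 have E1 and E2 enzymes of their own.

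Most proteasome genes lay on the positive side with small ratios. All genes of the 20S core and of PA28 were positive on both arrays, while the cap genes were less uniform and the E1 and E2 genes were spread around 0. None of the 32 genes was past 2-fold, against 8.75% of all 4331 named genes (3.72% on the positive and 5.03% on the negative side). Of the 32, 22 (68.8%) were positive on both arrays, 4 were negative on both and 6 had opposite signs. Among all named genes 30.2% were positive on both arrays, 29.3% were negative on both and 39.9% had opposite signs. The median log10 ratio was 0.0753 over the 32 genes and 0.0023 over all named genes. At 1.5-fold, 3 of the 32 genes were past the threshold on the positive side, which is close to the 8.43% of all named genes, and 0 on the negative side, against 9.44% (17.9% on either side). The mean was above 0 for 25 of the 32 genes, against 51.2% of all named genes, and larger than its SD for 24, against 52.2%. The share of genes with a common positive sign was thus above that of all named genes, while the share past 1.5-fold on that side was close to it.

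**Figure D1:**
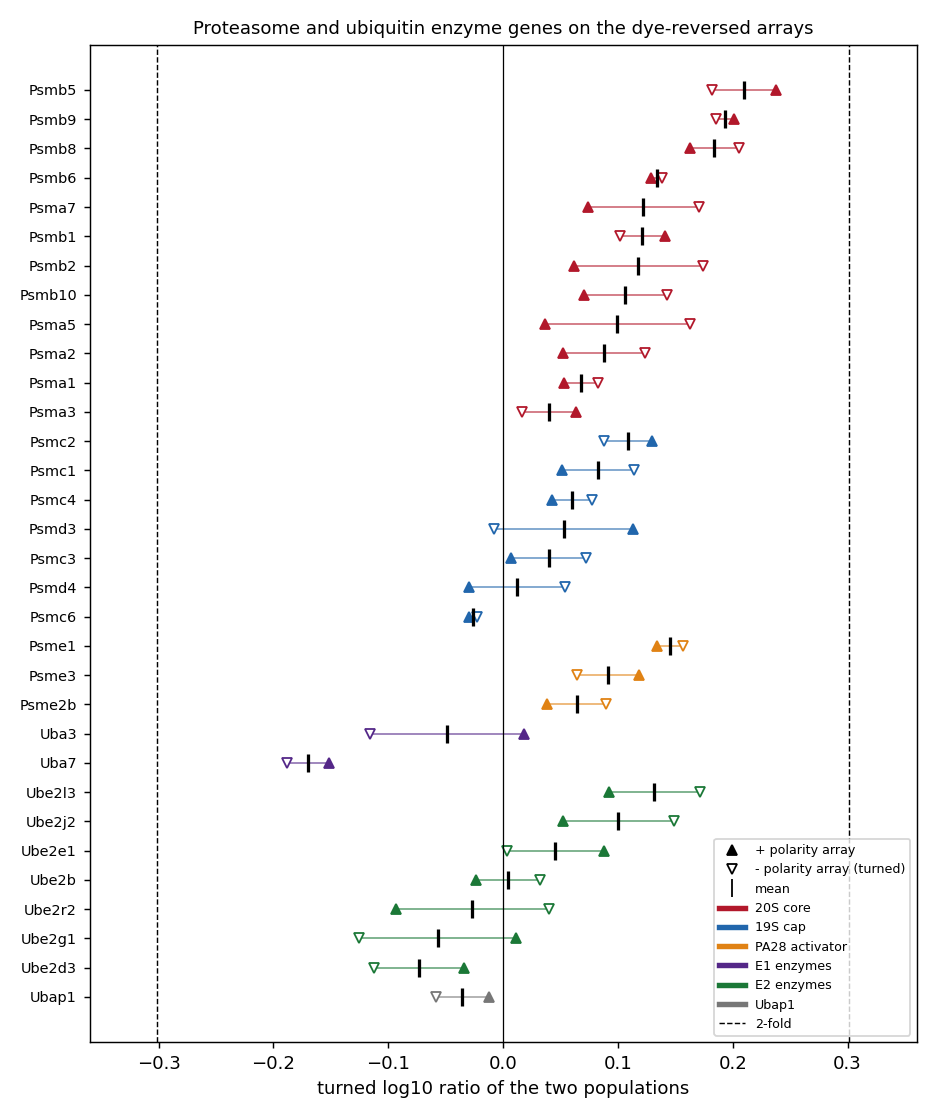
Turned log10 ratio of each of the 32 genes (horizontal axis) on the + polarity array (filled triangles), on the - polarity array (open triangles) and as their mean (bars), with dashed lines at 2-fold. All 12 core genes have both triangles right of 0, and no gene reaches a dashed line.

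Within the 20S core, all 12 measured genes were positive on both arrays, against 30.2% of all named genes. Their median of 0.120 corresponds to 1.32-fold. The lowest was Psma3 at 0.0400 and the highest Psmb5 at 0.210. The median was 0.0720 on the + polarity array and 0.153 on the turned - polarity array. The 7 beta subunits had a median of 0.134 and the 5 alpha subunits a median of 0.0882, a difference of 0.0454. On the single arrays the difference of medians was larger, at 0.0878 and 0.0506. Differences between groups of genes are taken between medians of the averaged genes, so they need not lie between the values of the single arrays, and no SD is given for them.

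Among the immune beta subunits, Psmb9 and Psmb8 had some of the largest ratios of the set. Psmb9, the immune subunit LMP2, was at 0.201 and 0.186, a mean of 0.193 ± 0.011 (1.56-fold). Psmb8, the immune subunit LMP7, was at 0.163 and 0.205, a mean of 0.184 ± 0.030 (1.53-fold). Both genes were past 1.5-fold and lay above 92.4% and 91.8% of all named genes. The 2 probes of Psmb8 gave 0.147 and 0.178 on the + polarity array and 0.194 and 0.217 on the turned - polarity array, so both probes lay on the same side on both arrays. Psmb10, the immune subunit MECL-1, was lower, at 0.0702 and 0.143 with a mean of 0.106 ± 0.051 (1.28-fold).

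The constitutive beta subunits had ratios of much the same size. Psmb5, which carries the chymotrypsin-like site, had the largest value of all 32 genes, at 0.238 and 0.182 with a mean of 0.210 ± 0.040 (1.62-fold). Psmb6, which carries the caspase-like site, was at 0.129 and 0.138 with a mean of 0.134 ± 0.0064 (1.36-fold). Psmb7, the constitutive subunit with the trypsin-like site, was not analysed here. Psmb1 and Psmb2, structural beta subunits without a proteolytic site, were at 0.121 ± 0.028 and 0.118 ± 0.080. The arrays agreed more closely for Psmb1, at 0.141 and 0.102, than for Psmb2, at 0.0613 and 0.175.

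Immune and constitutive beta subunits differed little and not uniformly. The median was 0.184 over the 3 immune genes and 0.127 over the 4 constitutive genes, a difference of 0.0565 (1.14-fold). Of the 4, Psmb5 (0.210) and Psmb6 (0.134) are exchanged for immune subunits, while Psmb1 (0.121) and Psmb2 (0.118) are not. Psmb1 and Psmb2 were the lowest of the 4 and bring the constitutive median down, so the difference is not one between exchanged subunits alone. On single arrays the difference of medians was 0.0275 and 0.0292, smaller than with both arrays averaged. With means in place of medians it was 0.0156. The ranges overlap, since the constitutive Psmb5 lay above all 3 immune genes and the immune Psmb10 below all 4 constitutive genes. Within the exchange pair of the chymotrypsin-like site, Psmb8 minus Psmb5 was -0.0751 on the + polarity array and 0.0236 on the turned - polarity array, a mean of -0.0258 ± 0.070 that is smaller than its spread. For the caspase-like site, Psmb9 minus Psmb6 was 0.0717 and 0.0474, a mean of 0.0596 ± 0.017 with the immune gene higher on both arrays. All measured genes of both sets lay on the same side of 0 on both arrays.

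The alpha subunits had a smaller median ratio than the beta subunits, and several of them differed widely between the arrays. Psma7 was at 0.0739 and 0.170, a mean of 0.122 ± 0.068, and Psma5 was at 0.0363 and 0.163, a mean of 0.0995 ± 0.089. Psma2 was at 0.0525 and 0.124 with a mean of 0.0882 ± 0.050. For these genes the turned - polarity value was more than 2 times the + polarity value. Psma1 was at 0.0533 and 0.0829, a mean of 0.0681 ± 0.021, and Psma3 was at 0.0631 and 0.0168, a mean of 0.0400 ± 0.033.

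Psmb8 and Psmb9 lie beside the peptide transporter genes in the MHC region of chromosome 17. In the RefSeq gene table (GRCm38.p6) the order is Psmb9, Tap1, Psmb8, Tap2, with 225 bases between the start of Psmb9 and that of Tap1, which is transcribed the other way. Tap1 and Tap2 encode the subunits of the transporter that carries proteasome-made peptides into the endoplasmic reticulum. Tap2 was at 0.0840 and 0.227, a mean of 0.156 ± 0.10. Tap1, named after its value was seen, was at 0.0680 and 0.146, a mean of 0.107 ± 0.055. All 4 neighbours were positive on both arrays, against 30.2% of all named genes, with the proteasome genes above the transporter genes in the mean. The 4 genes were singled out with their values known, so this count gives no support to a pattern of the region. Whether their place on the chromosome bears on these ratios was not tested.

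The stretches upstream of the genes with the 3 largest ratios are shown because these genes lie side by side in value. The RefSeq promoter windows (GRCm38.p6), which run from 250 bases before to 50 after a start, held an entry for 28 of the 32 genes, in 34 windows. They were searched on both strands for TGACNNNGC, the core letters of the antioxidant-type element bound by Nfe2l1 and Nfe2l2, for TTCNNNGAA, the gamma-activated site, for the core of the interferon-stimulated response element, and for CCAAT. None of these motifs contains another. Below, capitals mark CCAAT read on the opposite strand for Psmb9, TTCNNNGAA for Psmb8 and TGACNNNGC for Psmb5, and each stretch ends at the base before the start. The first is the whole interval shared with Tap1, at chr17:34187331-34187555 on the minus strand, the second is chr17:34198075-34198194 on the plus strand and the last is chr14:54617996-54618075 on the minus strand.
Psmb9: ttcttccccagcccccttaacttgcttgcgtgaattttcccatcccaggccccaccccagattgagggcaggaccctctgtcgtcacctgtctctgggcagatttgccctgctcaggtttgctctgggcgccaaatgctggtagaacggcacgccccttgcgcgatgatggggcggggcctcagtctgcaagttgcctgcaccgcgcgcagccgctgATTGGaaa
Psmb8: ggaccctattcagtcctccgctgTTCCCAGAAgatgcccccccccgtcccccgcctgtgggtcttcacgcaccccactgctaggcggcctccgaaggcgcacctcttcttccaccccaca
Psmb5: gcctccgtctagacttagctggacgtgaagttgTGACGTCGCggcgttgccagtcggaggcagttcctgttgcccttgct

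The motifs were about as frequent in these windows as in all 32851 windows of the table. TGACNNNGC was in 3 of the 34 windows (8.82%, against 12.4% of all windows), those of Psmb5, Psmb6 and Psmc6. TTCNNNGAA was in 2 windows (5.88%, against 8.3%), those of Psmb8 and Ube2d3. The interferon-stimulated response element core was in 2 windows (5.88%, against 3.44%), those of Psme1 and Psmd4, and CCAAT was in 13 (38.2%, against 37.4%). Psmb5, Psmb8 and Psmb9 thus hold different motifs of those searched. Of the genes with the TGACNNNGC letters, Psmb5 and Psmb6 had positive means (0.210 and 0.134) and Psmc6 a negative one (-0.0262). Whether any of these motifs bears on the ratios was not tested.

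**Figure D2:**
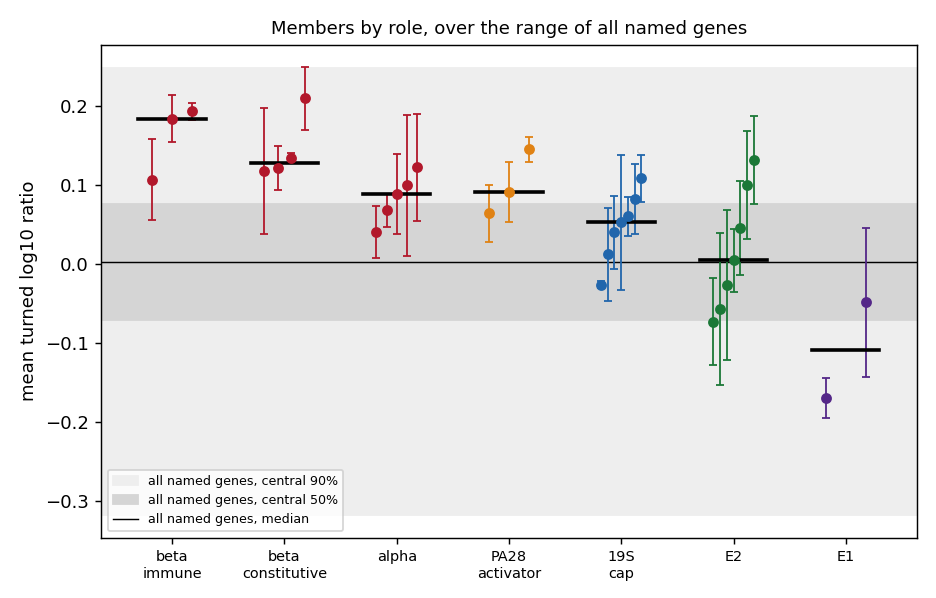
Mean turned log10 ratio of each gene (vertical axis, points, with error bars of 1 SD over the 2 arrays) by role, with the median of each role as a thick bar. Grey bands show the central 50% (-0.0705 to 0.0760) and central 90% (-0.319 to 0.248) of all named genes; the medians range between 0.184 for the immune beta genes and -0.109 for the E1 genes.

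The 19S cap genes were closer to 0 than the core genes. The median was 0.120 over the 12 core genes and 0.0528 over the 7 cap genes, a difference of 0.0669 (1.17-fold). The core median was also higher on each array, by 0.0294 and 0.0801. Of the 7 cap genes 4 (57.1%) were positive on both arrays, against 30.2% of all named genes. Of the others, 1 was negative on both and 2 had opposite signs. The ranges overlap, with the cap between -0.0262 and 0.109 and the core between 0.0400 and 0.210.

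Among the ATPases of the cap base, Psmc2 was highest, at 0.130 and 0.0876 with a mean of 0.109 ± 0.030. Psmc1 was at 0.0510 and 0.114 with a mean of 0.0825 ± 0.045, and Psmc4 was at 0.0426 and 0.0776 with a mean of 0.0601 ± 0.025. These 3 lay within the range of the core genes. Psmc3 was at 0.00728 and 0.0726, a mean of 0.0399 ± 0.046 that is smaller than its SD. Psmc6 was the only proteasome gene of the 22 below 0 on both arrays, at -0.0293 and -0.0231 with a mean of -0.0262 ± 0.0044, a ratio of 1.06-fold. The other cap genes gave no steady sign. Psmd4, a ubiquitin receptor of the cap, was at -0.0293 and 0.0538 with a mean of 0.0122 ± 0.059. Psmd3, of the cap lid, was at 0.113 and -0.00759 with a mean of 0.0528 ± 0.085. Only these 2 Psmd genes were analysed here, so the lid is represented by 1 gene.

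The 3 PA28 activator genes were all positive on both arrays, against 30.2% of all named genes, with a median of 0.0915. Psme1, which encodes PA28 alpha, was at 0.134 and 0.156 with a mean of 0.145 ± 0.016 (1.40-fold), above 87.9% of all named genes. Psme3, which encodes the nuclear PA28 gamma, was at 0.118 and 0.0647 with a mean of 0.0915 ± 0.038. The probe annotated to Psme2b, a near copy of the PA28 beta gene Psme2, was at 0.0386 and 0.0895 with a mean of 0.0640 ± 0.036. Signal of the parent gene and of the copy cannot be told apart here, so that assignment is uncertain. PA28 alpha and beta form the ring that interferon gamma induces together with the immune subunits. Taken with the 3 immune beta genes, the 5 genes had a median of 0.145 and were all positive on both arrays.

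**Figure D3:**
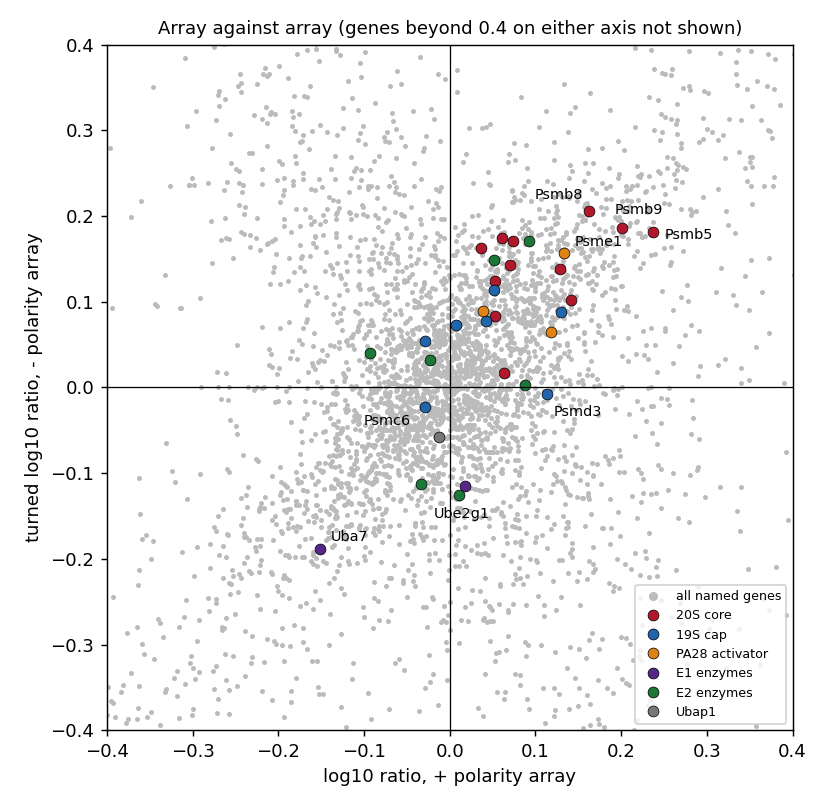
Log10 ratio on the + polarity array (horizontal) against the turned log10 ratio on the - polarity array (vertical) for all named genes (grey, shown within 0.4 of 0) and for the 32 genes (coloured by role). The core genes lie to the upper right of the origin, together with genes of other roles, and Psmb5, Psmb8 and Psmb9 lie farthest out. Uba7 is the gene of the set farthest into the lower left.

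Of the 2 activating enzymes, 1 was negative on both arrays and 1 had opposite signs. Uba7, the E1 of the interferon-induced modifier ISG15, was at -0.152 and -0.188, a mean of -0.170 ± 0.026 (1.48-fold). It was the lowest of the 32 genes, and 11.6% of all named genes lay below it. Uba3, the catalytic subunit of the NEDD8 E1, was at 0.0181 and -0.116 with a mean of -0.0487 ± 0.094, which is smaller than its spread. The main ubiquitin E1, Uba1, was not analysed here.

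The 7 conjugating enzymes had a median of 0.0044, next to the 0.0023 of all named genes. Of the 7, 3 (42.9%) were positive on both arrays, against 30.2% of all named genes. Of the others, 1 was negative on both and 3 had opposite signs. Ube2l3, which works with HECT and RBR ligases, was highest at 0.0919 and 0.171 with a mean of 0.132 ± 0.056 (1.35-fold). Ube2j2, an E2 of the endoplasmic reticulum membrane, was at 0.0518 and 0.148 with a mean of 0.100 ± 0.068. These 2 lay within the range of the core genes. Ube2e1 was at 0.0878 and 0.00319, a mean of 0.0455 ± 0.060. Ube2b, a RAD6-type E2 of DNA damage tolerance, was at -0.0236 and 0.0323 with a mean of 0.0044 ± 0.039. Ube2r2, a relative of the cullin-ligase E2 Cdc34, was at -0.0937 and 0.0404 with a mean of -0.0266 ± 0.095. For these 3 genes the mean was smaller than its SD.

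Ube2d3, an E2 shared by many ligases, was the only conjugating enzyme below 0 on both arrays, at -0.0340 and -0.112 with a mean of -0.0732 ± 0.055. Ube2g1 was at 0.0113 and -0.125, a mean of -0.0569 ± 0.096, and its 2 probes disagreed. One probe gave 0.0251 and -0.256 and the other -0.0025 and 0.0058, so the negative mean rests on 1 probe on 1 array. Ubap1 was at -0.0125 and -0.0583 with a mean of -0.0354 ± 0.032. The median of the 22 proteasome genes was 0.0955 and that of the 9 E1 and E2 genes -0.0266, a difference of 0.122 (1.32-fold). It was positive on each array but smaller there, at 0.0554 and 0.105.

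Other parts of the ubiquitin system had medians nearer to that of the E2 genes than to that of the core. Of 16 measured ubiquitin ligase genes 1 was positive on both arrays and 6 were negative on both. The shares over all named genes were 30.2% and 29.3%. The ligase median was -0.0340. Rnf7, a RING subunit of cullin ligases, was past 2-fold on the negative side at -0.412 ± 0.0078 (2.58-fold). Xiap was at 0.177 ± 0.090, and Skp2, at 0.109 and -0.508, had opposite signs. Of 12 deubiquitinase genes 3 were positive on both arrays and 3 negative on both, with a median of 0.0161. Usp28 was past 2-fold on the negative side at -0.674 ± 0.026 (4.72-fold), followed by Otub2 at -0.184 ± 0.062 and Usp8 at -0.0913 ± 0.012. Of 5 genes of modifiers and ubiquitin shuttles 3 were positive on both arrays and the median was 0.0425. Ufd1, a cofactor of the p97 segregase, was at 0.158 ± 0.0074, the autophagy receptor Sqstm1 at -0.126 ± 0.015 and Faf1 at 0.0450 ± 0.042. Of the proteasome's own regulators 2 were analysed, Nfe2l2, a transcription factor of the antioxidant response, at -0.140 ± 0.031 and the proteasome inhibitor Psmf1 at 0.0009 ± 0.047.

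Genes that supply MHC class I molecules lay on the same side as the core in their means, though not all of them on each array. All 11 measured genes had a mean above 0, against 51.2% of all named genes. Of these, 8 were positive on both arrays, against 30.2% of all named genes, and 3 had opposite signs. The median was 0.0781, with 0 past 2-fold. Calr, the chaperone calreticulin, led at 0.220 ± 0.050, ahead of Tap2, and Pdia3 was at 0.118 ± 0.016. Genes of the interferon axis were split between the sides. Of 8 measured, 3 were positive on both arrays and 5 negative on both, with a median of -0.0660. Ifngr1, a chain of the interferon gamma receptor, was past 2-fold on the negative side at -0.380 ± 0.020 (2.40-fold). Iigp1, an interferon-induced GTPase, was at -0.215 ± 0.063, and the kinase gene Jak2 was at 0.121 ± 0.037. The immune subunits and Uba7 are all known as interferon-induced genes, and here they lay on opposite sides. The part of interferon in these ratios was not tested.

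**Figure D4:**
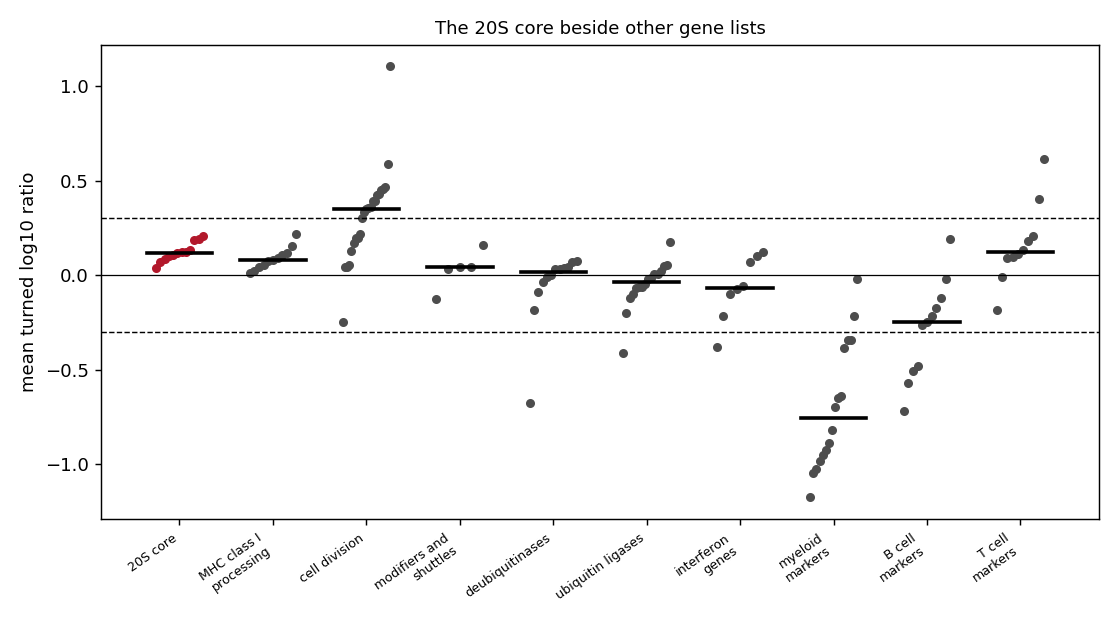
Mean turned log10 ratio (vertical axis) of each gene of the 20S core (red) and of other gene lists (grey), with the median of each list as a thick bar and dashed lines at 2-fold. The core, between 0.0400 and 0.210, is narrow beside the cell division genes (median 0.352) and the myeloid markers (median -0.757).

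Cell division genes lay mainly on the same side as the proteasome genes and myeloid markers on the other, most of them with larger ratios, while the other marker lists held genes of both signs or few genes. Of 23 measured cell division genes 22 were positive on both arrays, against 30.2% of all named genes. Of these 23, 13 were past 2-fold on the positive side, against 3.72%, and the median was 0.352. Rrm2, a subunit of ribonucleotide reductase, led at 1.10 ± 0.25, followed by Nek2 and Mki67. Of 16 myeloid and red pulp macrophage markers all 16 were negative on both arrays, between -1.17 and -0.0221, against 29.3% of all named genes. Past 2-fold on that side were 14 of them, led by Slc40a1, Adgre1 and Vcam1, against 5.03% of all named genes. Of 11 B cell markers 8 were negative on both arrays and 1 was positive on both, with a median of -0.245. Of 10 NK cell receptor genes 9 were negative on both, with a median of -0.396. The other was Klrg1, which had the largest ratio of that list, on the positive side at 1.07 and 1.11 (12.2-fold). Of 5 erythroid and platelet genes 4 were negative on both (median -0.125), and of 10 T cell genes 7 were positive on both and 2 negative on both (median 0.123). Ratios give no level in either population, so summed marker levels and markers at 0 could not be stated, and the part of these cell types and of cell division in the proteasome ratios was not tested.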

How the data were processed

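Per the labels, each array compared LAT3YF with wildtype cells, with dyes reversed between the 2 arrays. The authors deposited 1 log ratio per probe and array, read here as log10 because the base is not stated, nor are the scanner, background correction, normalization and numerator. Deposited medians were -0.00284 (+ polarity) and 0.00101 (- polarity), so the authors' values were already centred near 0. The columns correlated at -0.301, and the - polarity column was multiplied by -1. Genes were means over probes annotated to 1 gene (4654 of 8014 probes); 73 probes with several genes, none of them with a symbol of this set, and 3287 with none listed were left out. All 32 symbols were found unchanged in the RefSeq table. A fold of 2 is 0.301 on the log10 scale. With 1 replicate no test was made; counts were read against all named genes. The turning and counting steps were tested on simulated data. Members, lists and roles were chosen with earlier results of these data known. Every member was named, with up to 3 genes per other list by size of ratio; Tap1 and Ube2c lie outside that rule and were chosen after their values were seen. Alternatives were other folds, centring, scaling, log bases, probe summaries, single arrays, leaving out Ubap1, and means for medians. Python 3.11.15, pandas 2.3.3 and numpy 2.4.6 were used.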

Additional observations from a re-analysis of the deposited data

How the results depend on the processing

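The number of genes past the threshold was 0 at 2-fold and at 3-fold and 3 at 1.5-fold, and it was 0 on each array alone. Read as log2, the medians would be 0.0227 for all 32 genes, 0.0265 for alpha, 0.0384 for constitutive beta, 0.0554 for immune beta, 0.0276 for PA28 and -0.0329 for E1 genes, with differences of 0.017 between immune and constitutive and 0.0201 between core and cap. Read as natural logs, they would be 0.0327 for all, 0.0554 for constitutive beta, 0.0799 for immune beta, 0.0398 for PA28 and -0.0475 for E1 genes, with differences of 0.0245 and 0.029. By construction these readings only rescale the ratios. With means in place of medians, constitutive beta was 0.146, immune beta 0.161 and their difference 0.0156. That difference was 0.054 with scaled arrays and 0.0657 with the probe that differed least between the arrays; the cause was not tested. On single arrays it ranged from 0.0275 to 0.0292, core minus cap from 0.0294 to 0.0801, constitutive beta from 0.135 to 0.156, immune beta from 0.163 to 0.186, PA28 from 0.0895 to 0.118 and E2 from 0.0113 to 0.0323. Alpha ranged from 0.0533 to 0.124, the 19S base from 0.0249 to 0.0751 and E1 from -0.152 to -0.0668. No listed median or difference changed sign. Of single genes, Psmd3 and Ube2r2 changed sign on the turned - polarity array alone, Psmd4, Ube2b, Uba3 and Ube2g1 on the + polarity array alone, and Ube2g1 also with its closer probe (0.0017). No paired analysis was possible because the 2 arrays form 1 group. Without intensities, weak signals could not be set apart.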

Other observations

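Ube2c, the E2 of the anaphase-promoting complex, was left out by the symbol rule and counted with the cell division genes. It was at 0.462 and 0.442, a mean of 0.452 ± 0.014 (2.83-fold), and was chosen after its value was seen. None of the 7 other measured E2 genes was past 1.5-fold, against 17.9% of all named genes on either side.

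Across the 32 genes the turned arrays correlated at a Pearson r of 0.675, and across all 4331 named genes at 0.403. The points share 2 arrays and the same labelling reactions, and genes are not independent replicates.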
